A study of Mus musculus with 31 samples.

Results

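The 8 genes described here mark B cells: Ms4a1, Cd79a, Cd79b, Pax5, Cr2, Blk, Cd22 and Fcer2a. They were found by the gene name that the array design gives each probe, and all 8 were present, with 16 of the 56605 probes on the array. The arrays measured RNA of the distal colon of BALB/c mice, 1 mouse per array. All mice received azoxymethane (AOM), a carcinogen, by 1 injection into the abdomen a week before the experiment, and dextran sodium sulphate (DSS), which injures the colon lining, in the drinking water during the first days. No group without AOM and DSS was measured. The 15 mice of the CRC group had this treatment alone, with water by gavage, and the 16 mice of the CRC + E171 group also received the food additive E171 (titanium dioxide) at 5 mg/kg body weight per day. Mice were killed after 2, 7, 14 or 21 days, which gives 8 groups of 4 mice (2 males and 2 females), except CRC at 21 days, which has 3 (1 male and 2 females).

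B cells recognise antigen through a surface antibody, the B cell receptor, which signals inside the cell through the paired chains encoded by Cd79a and Cd79b. Blk encodes a kinase of the Src family that acts just below that receptor, and Pax5 the transcription factor that fixes the identity of the lineage. Ms4a1 encodes CD20, Cr2 the complement receptor CD21, which lowers the threshold for activation and is also made by follicular dendritic cells, Fcer2a the low-affinity IgE receptor CD23, and Cd22 an inhibitory co-receptor that binds sialic acid. In the colon, B cells lie mostly in lymphoid patches and isolated follicles scattered along the wall, whereas plasma cells, which have switched off most of these genes, lie in the mucosa between the crypts.

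The results below turn on the probes that read these genes, so the sequences that matter are given first (array annotation, build mm9). The probes of Cd79a and Blk each span more genome than their own length of 60 bases, which is the case for a probe that crosses from one exon to the next, and are shown whole as the only probe of their gene. Cd79a was read at chr7:25684357-25684614 on the + strand and Blk at chr14:63997333-63998470 on the - strand.
Cd79a: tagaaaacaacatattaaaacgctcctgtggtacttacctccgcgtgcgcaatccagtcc
Blk: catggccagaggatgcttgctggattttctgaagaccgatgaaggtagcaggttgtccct
Cd22 was read by 4 probes, which disagree, as described further below. They lie on the - strand of chromosome 7, at chr7:31651590-31651649 (A_51_P448140), chr7:31661143-31662467 (A_52_P466268), chr7:31651249-31651308 (A_55_P2016004) and chr7:31665113-31665172 (A_55_P2163795). The second is shown whole and the others by their first 30 bases, with a repeated CCAA in capitals.
A_51_P448140: ggaggatgagagcatccattactcagagct
A_52_P466268: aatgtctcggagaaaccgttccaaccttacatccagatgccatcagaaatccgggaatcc
A_55_P2016004: gaaaaatgaaaaaCCAACCAACCAACCAAa
A_55_P2163795: agggcctgctgtgttttttcatctacttta

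Because the members moved together over the arrays, the stretch of 250 bases before the start of each gene was searched for 4 motifs of B cell factors on both strands (RefSeq, build GRCm38.p6). This table held 5 of the 8 members. The E-box CAGGTG, bound by E proteins, was found before Cr2, Cd79a, Cd22 and 1 of the 3 starts of Fcer2a, and is held by 17.2% of the 32851 promoters of the same length. The EBF motif, TCCC followed after any 2 bases by GGGA, was found only before Cd22 among these members (0.779% of all promoters), and the ETS core AGGAAGT only before Cd79a (7.69%). The octamer ATGCAAAT (1.6% of all promoters) was found before none of the 5. Both promoters with matches to more than 1 motif are shown 5' to 3' with the matches in capitals (CACCTG is the E-box read on the other strand): Cd79a at chr7:24897247-24897496 on the + strand, with the E-box 154 and the ETS core 55 bases before the start, and Cd22 at chr7:30879029-30879278 on the - strand, with the E-box 245 and the EBF motif 49 bases before the start. A match of letters is a description and not a bound site.
Cd79a: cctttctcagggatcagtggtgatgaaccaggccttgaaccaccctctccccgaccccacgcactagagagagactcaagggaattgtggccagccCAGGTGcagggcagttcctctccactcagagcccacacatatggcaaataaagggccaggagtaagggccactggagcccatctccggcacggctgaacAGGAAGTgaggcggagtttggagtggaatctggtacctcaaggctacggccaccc
Cd22: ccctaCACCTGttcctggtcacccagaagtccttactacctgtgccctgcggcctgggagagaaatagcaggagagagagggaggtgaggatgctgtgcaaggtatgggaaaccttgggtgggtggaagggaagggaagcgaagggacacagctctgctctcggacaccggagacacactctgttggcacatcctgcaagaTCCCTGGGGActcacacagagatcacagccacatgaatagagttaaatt

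Each value is a log2 signal relative to the 75th percentile of its array, so that 0 means as bright as the probe at that percentile, and a gene with several probes has the mean of them. Values of different genes cannot be set against each other on this scale. Of all probes, 65.8% to 77.8% were well above background on an array. On 5 arrays a list of squamous epithelial markers (keratins and others, absent from colon mucosa) lay more than 2 log2 units above its mean over the arrays: CRC 7 days male 1 (7.25), CRC 21 days female 1 (6.34), CRC + E171 14 days male 2 (4.79), CRC + E171 21 days female 1 (2.97) and CRC + E171 2 days male 2 (2.00). On the other 26 arrays the list reached at most 0.31. Skeletal muscle markers were also high in CRC 7 days male 1 (7.47, against at most 1.89 on those 26 arrays), where the median of the epithelial markers was -3.22. Pancreatic acinar markers ranged from -3.21 to 10.1 over the arrays. The main comparisons are given with and without the 5 arrays. Xist, which is transcribed from the inactive X chromosome of females, was at -2.34 to -0.70 on the female arrays and at most -6.53 on the males, except CRC 14 days male 2, which lay within the female range.

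Of the B cell genes, 7 of the 8 had a probe well above background in every group and Blk in all but CRC + E171 at 21 days, and most varied far more between mice of the same group than between groups. The measured signal of Cr2 spanned 165-fold over the 31 arrays, from -5.51 in CRC 7 days male 1 to 1.85 in CRC 14 days female 1. Cd79b spanned 67.8-fold, and its lowest and highest values belong to mice of the same group, CRC 21 days female 1 (-2.13) and female 2 (3.96). The span was 46.3-fold for Ms4a1, 39.9-fold for Cd79a, 37.5-fold for Fcer2a, 16.5-fold for Pax5 and 5.34-fold for Cd22. For Blk, whose dimmest array (CRC + E171 2 days male 2) was not well above background, it was at least 7.77-fold, with that array set to its lowest detectable signal. On the lowest arrays of Cr2, Fcer2a, Pax5 and Cd22 1 probe of the gene was also not well above background, so their spans are of measured signal and not exact. In tissue RNA, fewer B cells and less RNA per B cell cannot be told apart.

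**Figure D1:**
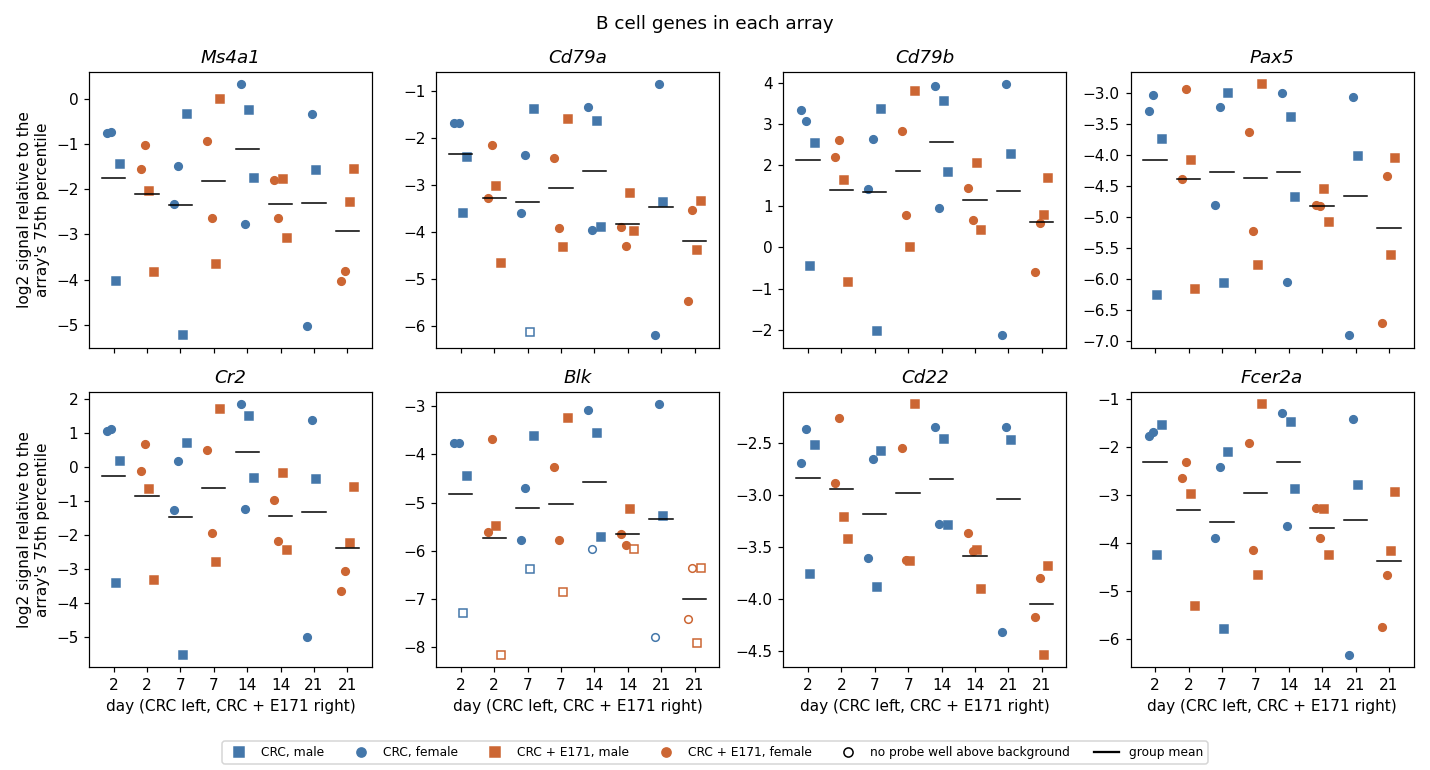
Log2 signal relative to the array's 75th percentile of the 8 B cell genes (y axis) in each mouse, by day (x axis, CRC in blue on the left and CRC + E171 in orange on the right). Squares are males and circles females, open symbols have no probe of the gene well above background, and horizontal lines are group means. Arrays of 1 group spread widely, as for Cd79b in CRC at 21 days, from -2.13 to 3.96, and the groups overlap in nearly all panels.

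Ms4a1 (CD20) shows the pattern. In the CRC group it was at -0.77, -0.74, -4.02 and -1.46 at 2 days, at -2.33, -1.49, -5.22 and -0.35 at 7 days, at 0.31, -2.77, -0.26 and -1.75 at 14 days, and at -5.03, -0.35 and -1.58 at 21 days (female 1, female 2, male 1 and, where present, male 2). In the CRC + E171 group, in the same order, it was at -1.55, -1.02, -2.05 and -3.82 at 2 days, at -0.94, -2.64, -3.66 and -0.01 at 7 days, at -1.81, -2.63, -1.77 and -3.08 at 14 days, and at -4.02, -3.81, -2.29 and -1.56 at 21 days. On each day the arrays of the CRC + E171 group overlapped those of the CRC group.

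The receptor chains followed the same mice. Cd79b was lowest in CRC 21 days female 1 and CRC 7 days male 1 (-2.13 and -2.03), the only 2 arrays of the CRC group below -1. At 14 days it was at 3.91, 0.95, 3.55 and 1.84 in CRC and at 1.43, 0.67, 2.04 and 0.42 in CRC + E171, so that the highest mice of CRC lay above all mice of CRC + E171 while the others overlapped. Cd79a was not well above background in CRC 7 days male 1, and was highest in CRC 21 days female 2 (-0.86). Blk, the kinase below the receptor, had a probe well above background on 20 of the 31 arrays.

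Group means had no order that held up against this spread. The mean of CRC + E171 at 21 days was the lowest of the 8 groups for each of the 8 genes, with Ms4a1 at -2.92 ± 1.19 (SD, n = 4), Cr2 at -2.37 ± 1.32, Fcer2a at -4.38 ± 1.16 and Blk, not well above background there, at a measured -7.01 ± 0.78. The highest mean was that of CRC at 14 days for Ms4a1, Cd79b, Cr2 and Blk, with Cr2 at 0.45 ± 1.48, and that of CRC at 2 days for Cd79a, Pax5, Cd22 and Fcer2a, with Fcer2a at -2.32 ± 1.30. Of the 56 steps between neighbours in these orders, 1 was larger than the greater of the SDs of both groups. That step was for Cd22, between CRC + E171 at 14 days (-3.59 ± 0.23) and at 21 days (-4.05 ± 0.39).

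The SD between arrays of a group was 2.05 for Cr2, 1.78 for Cd79b, 1.56 for Ms4a1, 1.49 for Blk, 1.47 for Fcer2a, 1.43 for Cd79a and 1.35 for Pax5, and 0.62 for Cd22. The median over the 8 genes was 1.48, against 0.44 over the 19741 genes with a value on every array. With that, 7 of the 8 lay between the 95.8th percentile (Pax5) and the 99.0th (Cr2) of all genes, and Cd22 at the 70.5th. The groups held 17.4% of the variance of the members in the median, against 29.5% in the median of all genes, where 8 groups of unrelated arrays would hold 23.3%. Without the 5 arrays with squamous markers the SDs were 0.55 for Cd22 and 1.08 to 1.55 for the others.

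**Figure D2:**
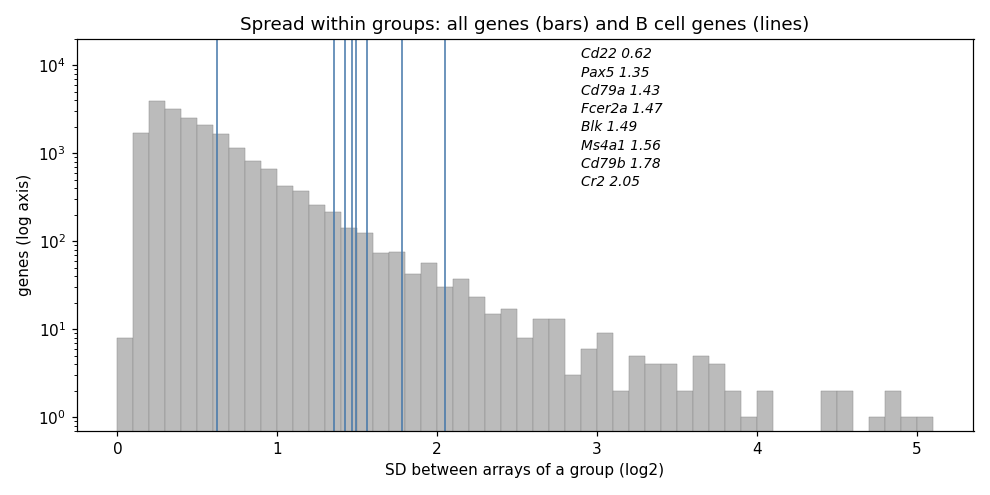
Number of genes (y axis, log scale) by the SD between arrays of the same group (x axis, log2 units). Grey bars are all genes, and blue lines the 8 B cell genes: 7 of them lie at 1.35 or above, while the median of all genes is 0.44 and Cd22 is at 0.62.

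The members rose and fell together from mouse to mouse. Over the 31 arrays the Pearson correlation of the 28 pairs was 0.83 to 0.99 (median 0.91) and the Spearman correlation 0.85 to 0.99. After subtracting each group's mean, Pearson values were 0.87 to 0.99, within the 3 scan days at least 0.71, 0.83 and 0.86, and without the 2 arrays farthest from the median 0.81 to 0.98. On the 26 arrays without squamous markers they were 0.80 to 0.98. Genes measured on 1 array share its tissue piece and RNA, so these values are a description. The mean of the members, each centred on its own mean, correlated at 0.12 with the share of probes well above background and at 0.15 with the brightness of the array.

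The mean of the centred members was highest in CRC 14 days female 1 (2.02), CRC + E171 7 days male 2 (1.96), CRC 21 days female 2 (1.93) and CRC 14 days male 1 (1.68). It was lowest in CRC 21 days female 1 (-2.82), CRC 7 days male 1 (-2.49), CRC + E171 21 days female 1 (-2.08) and CRC + E171 2 days male 2 (-1.82). All 4 of these low arrays are among the 5 with squamous markers, whose part in the low values was not tested.

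The main question of the design is whether E171 changes expression on top of AOM and DSS. On average over the 4 days all 8 genes were lower in CRC + E171, by 0.36 (Pax5) to 0.90 (Blk) on the log2 scale, but none passed either threshold: a linear fold change of 1.5 with an unadjusted p under 0.05, which 1.79% of all genes passed, or an adjusted p under 0.05, which 1 of 19797 genes (0.00505%) passed. The median over the members was -0.61 and over all genes 0.03, with 43.3% of all genes below 0. Cd22 had the smallest p (-0.42, SE 0.22, adjusted p = 0.514, limma), followed by Blk (-0.90, SE 0.51, adjusted p = 0.540). The Blk values of the mean and of 21 days include the 4 arrays of CRC + E171 at 21 days, where Blk was not well above background. Since the members move together, 8 genes below 0 are not 8 separate observations. On the 26 arrays without squamous markers the median was -0.91 and Cd79a passed the fold and p threshold (-0.95), where 603 of 19797 genes did.

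**Figure D3:**
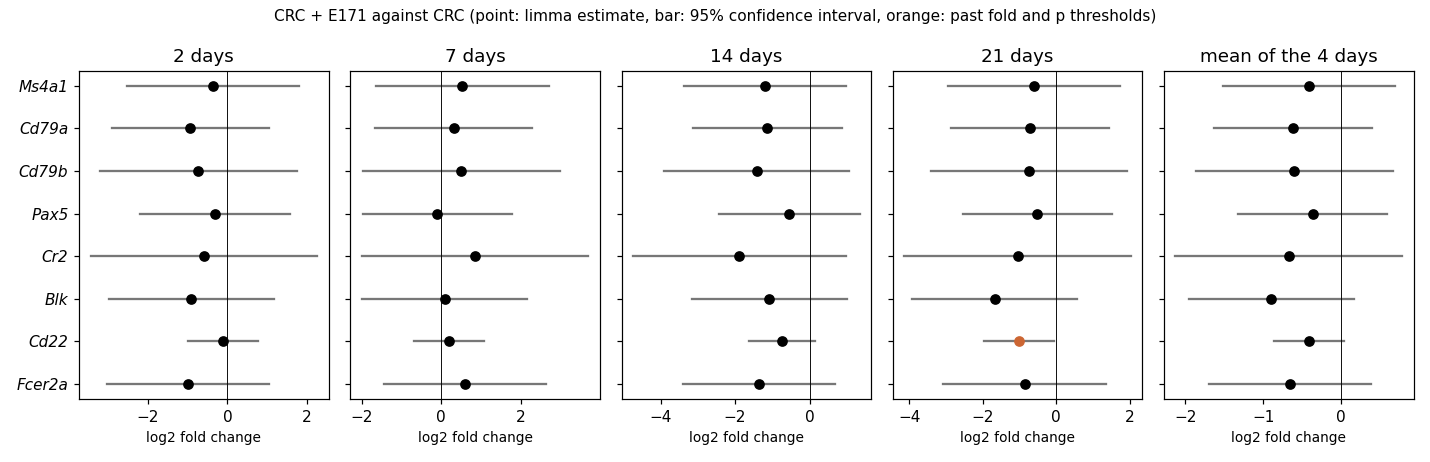
Log2 fold change of CRC + E171 against CRC (x axis) of the 8 B cell genes (y axis) on each day and averaged over the 4 days. Points are limma estimates, bars 95% confidence intervals, and orange marks a gene past a fold change of 1.5 with an unadjusted p under 0.05: only Cd22 at 21 days (-1.01) is orange, and nearly all bars cross 0.

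At 2 days all 8 genes were lower in CRC + E171, from -0.11 (Cd22) to -0.99 (Fcer2a), with a median of -0.66 against 0.06 over all genes, 40.8% of which were below 0. None passed the fold and p threshold, which 1.7% of all genes did, and no member's arrays separated the groups. The confidence interval of the Cd79a difference ran from -2.92 to 1.06. On the 26 arrays, which leave out the low CRC + E171 male 2, the median was 0.03 and 3 of the 8 were lower. Without the low mouse of CRC, male 1, it was -1.47 and all 8 were lower.

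At 7 days the direction was the opposite, with 7 of 8 genes higher in CRC + E171 and a median of 0.41 against -0.01 (50.8% of all genes below 0). Cr2 had the largest value (0.85, SE 1.39, adjusted p = 0.801) and Pax5 was at -0.10. None was called, where 12.4% of all genes passed. The direction rests on 2 mice, the low CRC male 1, in which Ms4a1 was at -5.22 and Cr2 at -5.51, and the high CRC + E171 male 2. Without CRC male 1, the only one of the 5 arrays at 7 days, all 8 genes were lower in CRC + E171 (median -0.46). Without CRC + E171 male 2, which has no squamous markers, 7 of the 8 were lower (median -0.12). In the same comparison the epithelial marker list was higher in 8 of 8 genes and called in 8, with a median of 1.22, and the skeletal muscle list lower in 6 of 6 and called in 4. The acinar list was at 7.76, -1.11, -1.08 and 8.25 in CRC and at -2.41, -2.33, -1.03 and -2.46 in CRC + E171. The neutrophil list was at -0.54, -0.59, 4.60 and 5.08 in CRC and at -0.92, -2.08, -1.80 and 3.24 in CRC + E171. The part of these cells in the difference of the B cell genes was not tested.

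At 14 days all 8 genes were lower in CRC + E171, with a median of -1.17 against 0.01 over all genes (48.4% below 0). Cr2, the complement receptor, had the largest estimate (-1.88, SE 1.39, adjusted p = 0.770), and its interval ran from -4.74 to 0.97. It was at 1.85, -1.24, 1.52 and -0.33 in CRC and at -0.96, -2.18, -0.15 and -2.43 in CRC + E171, so that 2 of the mice in CRC lay above all in CRC + E171. Fcer2a (CD23) was at -1.36 (SE 0.99, adjusted p = 0.768). No member was called, where 6.34% of all genes were. Cd22 was the only member whose groups did not overlap, which was so for 5.89% of all genes: it was at -2.34, -3.28, -2.46 and -3.29 in CRC and at -3.36, -3.54, -3.53 and -3.91 in CRC + E171. Its difference was -0.74 (SE 0.43, adjusted p = 0.680), and the two-sided exact permutation p of 0.0286 is the smallest that 4 and 4 arrays can give. This gene value is the mean of 4 probes, and 1 of them (A_52_P466268) was not well above background on any of these arrays of CRC + E171. The probe A_51_P448140 overlapped, at 1.09, -1.68, 0.72 and -1.20 in CRC and at -1.16, -2.45, -0.55 and -2.14 in CRC + E171. The other 2 probes were higher in CRC + E171 by 0.11 each, and with the highest probe standing for the gene Cd22 turned to 0.11. With the 26 arrays all 8 were lower, with a median of -1.03. The arrays were scanned on 3 days, and for each time point 1 scan day held both treatments, with 2 mice of each. Within it, the median difference of the members was -2.67 here and, in order of time, -0.96, 1.48 and -0.32 for the other time points. With the scan day as a block the medians of all 4 were -1.15, 0.70, -0.74 and -1.22 in order of time, so that directions were kept while sizes moved.

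At 21 days all 8 genes were again lower in CRC + E171, with a median of -0.80 against 0.02 (47.9% of all genes below 0). Cd22 fell past the fold and p threshold (-1.01, SE 0.46, interval -1.96 to -0.05, adjusted p = 0.855), where 2.66% of all genes were called and 1.82% called as lower. It did not pass the stricter threshold of 1.5 on the log2 scale, which 0.349% of all genes did. It was at -4.32, -2.34 and -2.47 in CRC and at -4.17, -3.80, -4.54 and -3.68 in CRC + E171. The lowest mouse of CRC, female 1, lay within the range of CRC + E171, while the other two lay above all of it, and the exact permutation p was 0.171. Blk was at a measured -1.67 (SE 1.09, adjusted p = 0.887). It was not well above background on any of the 4 arrays of CRC + E171 and was so on 2 of the 3 of CRC, so its level in CRC was at least 1.53-fold higher when the dim arrays are set to the lowest detectable signal. The measured means behind this were -5.34 and -7.01. No such bound remains without CRC female 2, and it is 3.58-fold without CRC female 1.

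The 21-day values of the members depend on single mice, above all on 2 of the small CRC group that lie at opposite ends. Leaving out CRC 21 days female 1, which is low in all members and high in squamous markers, gave calls of 3 members, with Cd22 at -1.65, Blk at -2.90 and Fcer2a at -2.28. Leaving out female 2, which is high in all members, gave no call (Cd22 at -0.65), and Ms4a1, Cd79a, Cd79b, Pax5, Cr2 and Fcer2a turned to 0.18 to 0.59 above 0. The call of Cd22 was also lost without CRC male 1 (-0.72), CRC + E171 female 1 (-0.96) or CRC + E171 male 1 (-0.84), and with normexp background correction (-0.59). With all 5 arrays with squamous markers left out the median was -1.73, and Cd22 (-1.60) and Blk (-2.76) were called, where 577 of 19797 genes were. For the fits that leave out 1 array, the share of all genes called is not given here.

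Whether the difference changed with the day was tested by an F test on the contrasts between days. No member had an unadjusted p under 0.05, where 6.53% of all genes did, and p ranged from 0.216 (Cd22) to 0.985 (Pax5). The size of the SEs limits what could be seen: they were 0.43 to 1.39 for the members at 2, 7 and 14 days, against 0.31 in the median of all genes.

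The 4 probes of Cd22 did not measure the same thing. A_51_P448140 correlated at 0.98 with the mean of the other 7 genes over the 31 arrays and had an SD of 1.70 between arrays. A_52_P466268 correlated at 0.60 and was well above background on 19 arrays. A_55_P2016004, the probe that holds the CCAA repeat, and A_55_P2163795 correlated at -0.020 and -0.084, although both were well above background on all 31. Their SDs were 0.59 and 0.36, so the mean of the 4 probes varies less than the other members do.

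Fitted by itself, the probe that follows the other B cell genes was not called at 21 days (A_51_P448140, -0.90, SE 1.29, adjusted p = 0.916). The only Cd22 probe called at 21 days was A_55_P2016004, which was at -1.28, -1.30 and -0.01 in CRC and at -1.66, -2.07, -2.09 and -2.15 in CRC + E171 (-1.13, SE 0.33, adjusted p = 0.779 over all probes). All 4 mice of CRC + E171 lay below all 3 of CRC in this probe, and the groups did not overlap in 7.22% of all probes, while 3.7% of all probes were called. A_52_P466268 was at a measured -1.70 at 21 days (SE 0.90, adjusted p = 0.796), where it was well above background on 3 of 3 arrays of CRC and 1 of 4 of CRC + E171. It was called at 14 days, where 6.68% of probes were, but was well above background on all 4 arrays of CRC and none of CRC + E171, so its level in CRC was at least 2.02-fold higher (measured means -5.17 and -7.05, adjusted p = 0.574). It was also called in the mean of the days (-1.29, SE 0.42, adjusted p = 0.360), where 2% were, with the same dim arrays included. No probe of the other 7 genes was called in any E171 comparison. At 21 days the 2 probes of Ms4a1 were at -0.64 and -0.56, the 3 of Cr2 at -0.95 to -1.16, and the 2 of Fcer2a at -1.26 and -0.47.

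**Figure D4:**
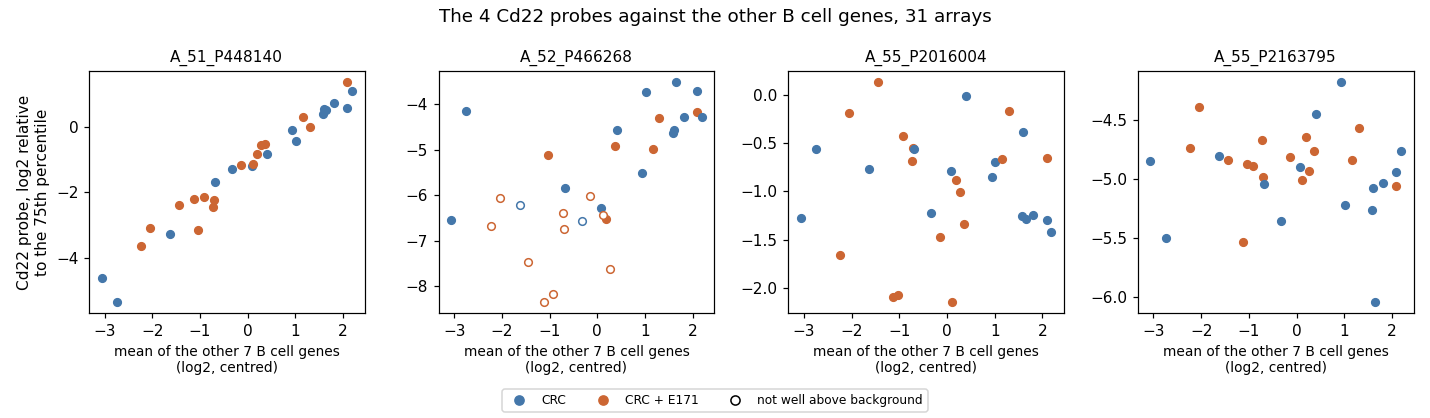
Log2 signal of each of the 4 Cd22 probes relative to the array's 75th percentile (y axis) against the mean of the other 7 B cell genes after centring (x axis), 1 point per array (CRC blue, CRC + E171 orange, open where the probe is not well above background). A_51_P448140 rises along the other genes (r = 0.98), while A_55_P2016004 and A_55_P2163795 show no such rise (r = -0.020 and -0.084).

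Over time within a group, differences in the CRC group reflect age, the time after AOM, the stage of the DSS treatment, and the handling together. Mice killed at 2 days were still receiving DSS, whereas those killed on later days had finished it. From 2 to 7 days all 8 genes were lower in CRC (median -0.69, Fcer2a -1.24 with an adjusted p = 0.535; 49.4% of all genes below 0), and from 7 to 14 days 7 of 8 were higher (median 0.94, Cr2 1.92 with an adjusted p = 0.621; 50.7% below 0). None was called, where 13.4% and 7.4% of all genes were. Both comparisons hold the CRC arrays of 7 days, where the epithelial list was at 0.12, 0.14, -3.22 and -1.45. The skeletal muscle list was at -0.81, 1.89, 7.47 and -1.11 there (female 1, female 2, male 1 and male 2). The part of these cells in the differences was not tested. From 2 to 21 days the median in CRC was -0.67 and all 8 genes were lower (53% of all genes below 0), with 0 calls against 3.58% of all genes. On the 26 arrays these medians were 0.13, 0.11 and 0.62, so that those of 7 and of 21 against 2 days changed sign. With the scan day as a block they were -0.69, 0.47 and -0.21.

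In CRC + E171 the median was 0.26 from 2 to 7 days and -0.67 from 7 to 14 days, with 0 calls where 3.25% and 2.64% of all genes were called and 56% and 48.3% were below 0. With the 5 arrays left out these medians were -0.28 and -0.49, with all 8 genes lower in both, so that the direction from 2 to 7 days turned. It also turned without CRC + E171 7 days male 2 (-0.29), without which the median from 7 to 14 days was -0.050. With the scan day as a block the medians were 1.03 and -0.97, and -0.57 from 2 to 21 days. From 2 to 21 days the median without a block was -0.99, and all 8 genes were lower (57.6% of all genes below 0). It was -0.56 without CRC + E171 2 days female 2. Cd22 was called (-1.10, SE 0.43, adjusted p = 0.273), where 7.39% of all genes were called and 5.3% as lower, but did not pass the threshold of 1.5 on the log2 scale (0.844% of all genes). The call was lost without CRC + E171 2 days female 2 (-0.87) or 21 days male 1 (-0.94). It was at -2.89, -2.26, -3.22 and -3.43 at 2 days and at -4.17, -3.80, -4.54 and -3.68 at 21 days, so that the groups did not overlap, which was so for 8.17% of all genes (exact permutation p = 0.0286, the smallest possible). The probe of Cd22 called here was again A_55_P2016004 (-1.35, SE 0.31, adjusted p = 0.0779), where 10.3% of all probes were called. Blk was at least 1.17-fold higher at 2 days, with 3 of those 4 arrays well above background, and no bound remains without female 2. On the 26 arrays the median was -1.17. This comparison and that of E171 at 21 days share the 4 arrays of CRC + E171 at 21 days.

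Females were higher than males in all 8 genes, by 0.13 (Fcer2a) to 0.54 (Blk), in a fit with the group, and none was called, where 2.99% of all genes were (0.0556% by adjusted p, and 44.1% below 0). Without CRC 14 days male 2, whose Xist goes against its label, the median was 0.21, against 0.24 with it. When any 1 array was left out it ranged from 0.073 to 0.43, and it was lowest without CRC 7 days male 1, where 2 of the 8 genes were lower in females.

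Other genes of B cells and of the places where they gather were described by lists that hold none of the 8 members. The median of 14 other surface genes of B cells followed the members most closely of the 18 lists (r = 0.99 over the 31 arrays), and the medians of 10 transcription factors and 15 genes of receptor signalling followed at 0.94 and 0.91. Single genes spread more widely, from -0.082 (Fcgr2b) to 0.990 (Fcmr) in the surface list and from 0.15 (Tcf3) to 0.96 (Ikzf3) in transcription factors. In receptor signalling they ran from 0.19 (Blnk) to 0.98 (Bank1), with Prkcb at 0.40. Ebf1 was at 0.59. The medians of T cell genes (r = 0.91) and of the stroma and chemokines of lymphoid follicles (r = 0.90) were nearly as close. Those of MHC class II (0.77), germinal centre (0.66), follicle epithelium (0.62) and plasma cell genes (0.56) were less so. Single genes of the follicle stroma list ran from -0.61 (Ltbr) to 0.97 (Ltb). On the 26 arrays without squamous markers the values of the list medians were 0.96 for follicle stroma, 0.89 for T cells, 0.80 for germinal centre, 0.65 for MHC class II, 0.51 for follicle epithelium and 0.19 for plasma cell genes.

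Lists of other tissues and cell types followed the members less closely over the 31 arrays, and several moved when the 5 arrays were left out. Smooth muscle genes were at r = -0.60, squamous epithelium at -0.57 and skeletal muscle at -0.46, and on the 26 arrays at -0.40, 0.31 and 0.0014. Macrophages were at 0.43, epithelium at 0.22, acinar cells at 0.19, neutrophils at 0.088, endothelium at -0.048 and fibroblasts at -0.17. Without the arrays with squamous markers, macrophages (0.62) and neutrophils (0.58) were closer, epithelium was at -0.25, acinar cells at 0.066, endothelium at 0.23 and fibroblasts at 0.17. The lists share arrays and tissue pieces with the members, and no test was made.

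**Figure D5:**
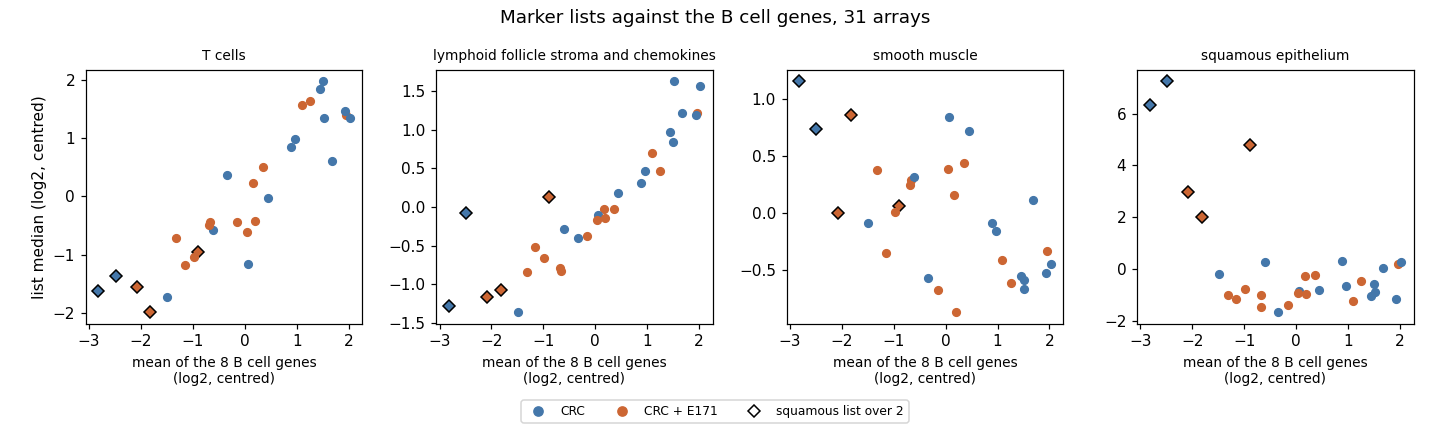
Median of 4 marker lists after centring (y axis, log2) against the mean of the 8 B cell genes after centring (x axis, log2), 1 point per array, CRC blue and CRC + E171 orange. Diamonds are the 5 arrays with squamous markers above 2. T cell and follicle genes rise with the B cell genes (r = 0.91 and 0.90), smooth muscle falls (r = -0.60), and the squamous list is high only in the diamonds.

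By single genes, patterns among those most like that of the members over the 31 arrays were those of Fcmr (r = 0.990), Fcrl1 (0.987), H2-Oa (0.986), Fcrla (0.986), Tnfrsf13c (0.985), Cxcr5 (0.984), Tspan32 (0.978), H2-Ob (0.978) and Ccr6 (0.977). Of the 19733 other genes, 129 had an r above 0.9 and 316 above 0.8.

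With E171, the list of other B cell surface genes had medians of -0.56, 0.38, -1.14 and -0.89 at 2, 7, 14 and 21 days, with 13, 3, 14 and 13 of 14 genes lower, where 40.8%, 50.8%, 48.4% and 47.9% of all genes were. Of these, only Fcgr2b, an inhibitory receptor for IgG also made by myeloid cells, was called, at 7 days (-1.23, adjusted p = 0.197), when 12.4% of all genes were. Cxcr5, the receptor that leads B cells into follicles, was at -0.85, 0.42, -1.55 and -1.05, with no call. Cxcl13, the ligand of Cxcr5, was at -0.62, -0.74, -0.73 and -0.49, and Ltb, a signal for follicle formation, at -0.83, 0.14, -1.02 and -0.59. Follicle stroma had no call on any day. On the 4 days T cells were lower in 13, 6, 13 and 14 of 14 genes, with a call of Cd247, a chain of the T cell receptor, at 21 days (-1.32, adjusted p = 0.851), when 2.66% of all genes were called. Cd3e was at 0.14, -0.15, -0.11 and -0.08 and Cd8a at -0.82, 0.60, 0.25 and -1.12.

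In receptor signalling, 1 of 15 genes was called at 7 days, the adaptor Blnk (0.65, adjusted p = 0.295), and 1 at 21 days, the kinase Prkcb (-1.28, adjusted p = 0.851), where 12.4% and 2.66% of all genes were called. In the mean of the days Prkcb (-0.62) and the phosphatase Inpp5d (-0.63) were called (adjusted p = 0.495 for both), where 1.79% of all genes were. Of the 10 transcription factors, Ebf1 was called at 21 days (-1.07, adjusted p = 0.851), while Pou2af1 was at -0.68, 0.09, -1.20 and -0.23 and Spib at -0.61, 0.95, -1.56 and -0.66. In the germinal centre list of 8 genes Gcsam was called at 14 days (-0.92, adjusted p = 0.574), when 6.34% of all genes were. In the list of follicle epithelium, Tnfaip2 (-1.32, adjusted p = 0.232), Ccl9 (-0.97, adjusted p = 0.277) and Tnfrsf11a (0.80, adjusted p = 0.233) were called at 7 days. None of these genes passed the adjusted p, and each of the calls named for these lists, except that of Fcgr2b, was lost when 1 or another single array was left out. Without CRC 7 days male 1 Blnk was at 0.20, Ccl9 at -0.47 and Tnfrsf11a at 0.42. Gcsam was at -0.57 without CRC + E171 14 days male 2, and Cd247 at -0.80 without CRC 21 days female 2.

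Plasma cell genes had a median of 0.62 at 21 days, with 3 of 8 below 0, where 47.9% of all genes were below 0. By array, the median of the list after centring was at -1.01, -0.17 and 0.05 in CRC (female 1, female 2 and male 1). In CRC + E171 it was at -0.22, 0.30, 0.34 and -0.07, so that only CRC female 1 lay outside that range. A difference in direction from the members was not tested. Jchain, the joining chain of secreted IgA and IgM, was called as higher (1.09, SE 0.52, adjusted p = 0.855). It was at 2.33, 4.49 and 4.97 in CRC and at 4.67, 5.00, 5.39 and 4.99 in CRC + E171. The low value belongs to CRC female 1, an array with squamous markers, and without it the difference was 0.28 and not called. On the earlier days Jchain was at 0.01, 0.73 and -0.12. Ighm and Igha were not analysed here. The 5 MHC class II genes were lower at 2, 14 and 21 days (medians -0.21, -0.55 and -0.50) and higher at 7 days (0.21), with no call.

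Among the 89 genes of the 9 lists of B cell, follicle, plasma cell, T cell and MHC class II genes, no call over time or between the sexes passed the adjusted p. From 2 to 7 days in CRC 6 were called, where 13.4% of all genes were: Fcgr2b (1.27), Bcl6 (0.96), Ccl9 (1.0) and Sdc1 (0.61) were higher and Irf8 (-1.13) and Tnfrsf11a (-1.05) lower. From 7 to 14 days 6 were called, where 7.4% of all genes were: Fcgr2b (-0.97), Ccl9 (-1.13) and Sdc1 (-0.65) were lower and Blnk (0.78), Ccl20 (1.61) and Tnfrsf11a (0.78) higher. These 2 comparisons share the 4 CRC arrays of 7 days, so opposite calls of Fcgr2b, Ccl9, Sdc1 and Tnfrsf11a are not separate observations. The shared arrays include CRC 7 days male 1, with squamous markers at 7.25, and Ccl9 ran from 0.75 to 3.59 on them. Calls over time in these lists are not given with arrays left out. In CRC + E171, 2 genes of the lists were called at 14 against 7 days (2.64% of all genes), Ccl21a (-1.24) and H2-Aa (-1.23), both lower. At 21 against 2 days 6 were called (7.39% of all genes), all lower: Cd247 (-1.68), Ciita (-1.32), H2-Aa (-1.31), Pik3ap1 (-1.31), Pik3cd (-1.17) and Prdm1 (-0.96). Between the sexes, Cd8a (1.29) and Cd3g (1.03) were higher in females, 2 of the 89, where 2.99% of all genes were called.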

How the data were processed

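Per the labels, distal colon RNA of 31 mice was hybridised to 1-colour Agilent mouse arrays, and the deposited files hold scanner intensity values made by the authors with Agilent Feature Extraction 10.7.3.1 (background-subtracted, in linear units), beside a table of the authors' processed values on a log2 scale, used here as an alternative. The signal was log2-transformed and each array's 75th percentile subtracted. Flagged spots were left out and spots of a probe averaged. Probes were kept if, in at least 1 group, 60% of arrays were well above background with a mean log2 signal of at least 4, which left 42787 probes. Kept probes were matched to RefSeq genes by accession, symbol or synonym, and 8443 had no match. Probes of a gene were averaged, giving 19797 genes, 56 of which lack a value on some array. Groups were compared in 1 limma fit over all genes (R 4.3.3, limma 3.58.1, data.table version 1.17.8, statmod 1.5.0) with Benjamini-Hochberg adjustment, and called at a linear fold change of 1.5 with p under 0.05, or at an adjusted p under 0.05. Exact permutation tests are two-sided, and confidence intervals cover 95%. The number of arrays limits the precision. The fit was tested on simulated data.

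The members and lists were chosen with earlier results of these data known. The text names all members, 11 genes set beforehand, up to 4 called genes from each of the first 9 lists in a comparison, and the 10 genes most like the members, except for results that are not reported here. Results were recomputed with array weights, a slide block or a replicate block, leaving out each array, with quantile normalization, without the filter on dim probes, with the brightest probe standing for its gene, from the authors' table, and after normexp (offset 50). The study's methods word the fold threshold of 1.5 as a log2 fold change, which was run as an alternative. That threshold, fits by probe, with a scan day block, and without the 5 arrays with squamous markers were added after seeing the data. The 31 arrays lie on 8 slides scanned on 3 days, and each slide holds CRC of one day with CRC + E171 of another.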

Additional observations from a re-analysis of the deposited data

Results flagged for a closer look

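Of 56 sets of 4 arrays tested (8 genes in 7 groups), 1 held an array far from the rest of its group, which is 1.79%, while chance alone sets apart about 1 in 20. Fcer2a in CRC 2 days male 1 was at -4.26, while the other mice of the group lay between -1.77 and -1.54. The gap was 0.91 of the range of the group, above Dixon's critical value of 0.829. The other members were also lowest in this mouse within its group, with Cd79b at -0.45 and Cr2 at -3.41, and it is not among the 5 arrays with squamous markers.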

How the results depend on the processing

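No member passed the adjusted p under any alternative. The number of members called was 0 at 14 days (1255 of all 19797 genes called), and 1 with array weights (2550). At 21 days it was 1 (2.66% of all genes called). It was 0 with normexp background (355 of all 19797 genes called) and 0 at a log2 fold change of 1.5 (0.349% of all genes). It was 2 with array weights (1203 of all 19797 genes called) and 2 without the 5 squamous arrays (577). When leaving out 1 array it was 0 to 3. In the mean of the days it was 0 (355 of all genes called). It was 3 with array weights (554) and 1 without the 5 squamous arrays (603). When leaving out 1 array it was 0 to 3 (3 without CRC 21 days female 1, 1 without CRC 2 days male 1 and 1 without CRC + E171 2 days female 2). From 2 to 21 days in CRC + E171 it was 1 (1463 of all genes called), and 0 at a log2 fold change of 1.5 (167). When leaving out 1 array it was 0 to 1 in both CRC (1 without CRC 21 days female 2) and CRC + E171 (0 without CRC + E171 2 days female 2 or 21 days male 1). For the change of the E171 difference with the day it was 0 (1292 of all genes called). It was 1 with the highest probe of a gene (1349), 1 with array weights (3698) and 0 to 1 when leaving out 1 array (1 without CRC 21 days female 1).

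Without the 5 squamous arrays, E171 differences turned at 2 days for Ms4a1 (0.21), Cd79b (0.016), Pax5 (0.28), Cr2 (0.23) and Cd22 (0.048), and at 7 days for Ms4a1 (-0.43), Cd79a (-0.61), Cd79b (-0.62), Cr2 (-0.50), Blk (-0.33), Cd22 (-0.037) and Fcer2a (-0.15). Pax5 turned at 2 days with the authors' values (0.22) and the highest probe (0.32), and at 7 days with normexp background (0.10), the highest probe (0.065) and a scan day block (0.29). With the highest probe Cd22 turned at 2 days (0.13) and 14 days (0.11), and with quantile normalization Blk at 7 days (-0.012). The cause was not tested. Another 421 values of single genes under these alternatives kept direction and side of the threshold.

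When leaving out 1 array, the ranges that cross 0 were, at 2 days, -1.12 to 0.21 (Ms4a1), -1.59 to 0.02 (Cd79b), -1.03 to 0.28 (Pax5), -1.65 to 0.23 (Cr2) and -0.42 to 0.05 (Cd22). At 7 days they were -0.43 to 1.20 (Ms4a1), -0.61 to 0.97 (Cd79a), -0.62 to 1.18 (Cd79b), -0.69 to 0.37 (Pax5), -0.50 to 1.58 (Cr2), -0.51 to 0.69 (Blk), -0.088 to 0.42 (Cd22) and -0.15 to 1.17 (Fcer2a). At 21 days they were -1.96 to 0.38 (Ms4a1), -2.07 to 0.59 (Cd79a), -2.49 to 0.55 (Cd79b), -1.63 to 0.28 (Pax5), -2.90 to 0.30 (Cr2) and -2.28 to 0.18 (Fcer2a). Cd22 at 21 days ranged from -1.65 to -0.65, and its p exceeded 0.05 without CRC female 2 (-0.65), CRC male 1 (-0.72), CRC + E171 female 1 (-0.96) or male 1 (-0.84), and with normexp background (-0.59).

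The replicate numbers in the labels name mice. Of 15 pairs of same-numbered mice 8 correlated above 0.1 (-0.18 to 0.48). These pairs were not set against differently numbered mice, so they cannot show whether the numbers pair mice. Arrays of replicate 1 lie on slides 1 to 4 and those of replicate 2 on slides 5 to 8. With a replicate block Cd22 at 21 days was at -1.05, and the block changed no call. The consensus correlation of arrays on a slide was 0.0054. Blk, on 20 of 31 arrays above background, is limited by its signal.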
